A study of Mus musculus with 8 samples.

Results

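The 10 genes described here are mouse feedback and output genes of ERK signalling: the Sprouty genes Spry1, Spry2 and Spry4, the Sprouty-related genes Spred1 and Spred2, the phosphatase genes Dusp4, Dusp5 and Dusp6, and the transcription factor genes Etv4 and Etv5. They were chosen by name from the 55401 genes of the deposited table, with earlier results of these data known. All 10 were present and passed the filter on low counts that left 17669 genes to test. They were followed in polyadenylated liver RNA from NOD scid gamma (NSG) mice, which lack mature T, B and NK cells but keep macrophages and neutrophils, and which carried a human colorectal cancer line under the skin. The 4 Colo201 libraries came from hosts of the line given as high in FGF19, the 4 HCT116 libraries from hosts of the line given as low in FGF19, and each line had 2 libraries labelled male (Colo201 2L and 2R, HCT116 1L and 1R) and 2 labelled female (Colo201 4L and 4R, HCT116 3L and 3R). All 8 libraries came from livers of tumour-bearing hosts. Within a line FGF19 had no contrast, so FGF19 and other differences between the tumours cannot be told apart. Neither host age nor tumour size was given in the sources used here.

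ERK is the last kinase of a cascade that runs from receptor tyrosine kinases through RAS, RAF and MEK, and in hepatocytes FGF19 enters it through the receptor FGFR4 and its co-receptor Klb. Active ERK switches on genes that restrain the cascade: Sprouty and Spred proteins act on RAS and RAF, and dual-specificity phosphatases remove the activating phosphates from ERK. It also raises Etv4 and Etv5, ETS transcription factors downstream of FGF receptors in many tissues, in part by lifting repression by Capicua, a protein that binds short DNA motifs in the promoters of such genes.

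Depth was nearly even, at 61347603 to 65457482 estimated counts per library. How these counts relate to sequenced fragments was not given in the sources used here, and the Etv4 limit below takes 4 counts per fragment. Of 10 hepatocyte markers none was at 0 in any library, with summed levels that were the highest of all marker lists. X- and Y-linked genes went against the sex label in 8 of 8 libraries, so sex is given only as labelled. Whether L and R of a title number were separate animals is not in the labels; p-values thus cover only the spread between libraries, part of which may be technical. In bulk tissue, fewer cells of a type and less RNA per cell cannot be told apart.

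RefSeq promoter windows (GRCm38.p6, 250 bases before to 50 bases after an annotated start) matched 7 of the 10 genes; Spry4, Dusp4 and Etv4 had no entry. Promoters of 4 genes are printed: Dusp6 and Spry2 for the Capicua octamer, Etv5, which passed between the lines, for the shorter TGAATG core, and Dusp5 for the CArG box. In the first pair capitals mark matches to the Capicua octamer, here TGAATGAA, TGAATGGA, TCAATGAA or TCAATGGA on either strand. The Dusp6 window lies at chr10:99262981-99263280 on the plus strand and the Spry2 window at chr14:105896770-105897069 on the minus strand.
Dusp6: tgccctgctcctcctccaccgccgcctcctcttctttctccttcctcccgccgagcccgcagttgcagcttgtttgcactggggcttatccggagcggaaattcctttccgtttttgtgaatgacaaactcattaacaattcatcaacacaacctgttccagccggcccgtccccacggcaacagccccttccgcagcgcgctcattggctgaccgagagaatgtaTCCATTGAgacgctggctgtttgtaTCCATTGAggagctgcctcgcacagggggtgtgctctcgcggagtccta
Spry2: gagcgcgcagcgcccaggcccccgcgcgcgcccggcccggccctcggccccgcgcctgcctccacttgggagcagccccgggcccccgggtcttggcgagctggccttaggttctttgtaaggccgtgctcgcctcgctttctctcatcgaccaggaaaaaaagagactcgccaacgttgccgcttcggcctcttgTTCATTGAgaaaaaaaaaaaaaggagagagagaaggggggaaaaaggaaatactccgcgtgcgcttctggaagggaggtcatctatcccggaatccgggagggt
The Dusp6 window held the octamer at -24 to -17 and at 2 to 9, counted from the annotated start, and the Spry2 window held it at -54 to -47, all on the opposite strand. Etv5 had 2 annotated starts. The window of the inner start, at chr16:22438319-22438618 on the minus strand, is printed with its 6-base TGAATG matches in capitals, a core that is also part of 2 of the octamers.
Etv5: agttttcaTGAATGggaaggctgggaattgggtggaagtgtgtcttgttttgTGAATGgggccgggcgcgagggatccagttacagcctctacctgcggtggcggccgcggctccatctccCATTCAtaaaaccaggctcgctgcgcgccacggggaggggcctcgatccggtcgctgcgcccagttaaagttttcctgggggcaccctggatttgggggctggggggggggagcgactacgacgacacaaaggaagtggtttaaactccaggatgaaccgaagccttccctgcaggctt
These cores lay at -242 to -237, -198 to -193 and -129 to -124. In the Dusp5 window, at chr19:53528895-53529194 on the plus strand, capitals mark 2 adjacent CArG boxes, the motif bound by serum response factor, at -82 to -73 and -72 to -63.
Dusp5: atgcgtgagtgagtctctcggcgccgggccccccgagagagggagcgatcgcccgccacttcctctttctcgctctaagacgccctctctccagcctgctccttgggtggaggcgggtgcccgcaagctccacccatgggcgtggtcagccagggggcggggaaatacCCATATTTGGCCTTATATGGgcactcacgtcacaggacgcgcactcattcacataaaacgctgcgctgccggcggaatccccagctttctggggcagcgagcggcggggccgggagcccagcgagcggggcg

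The octamer was in 3.84% of 32851 RefSeq promoter windows of the same length, the TGAATG core in 12.7% and the CArG box in 1.63%. Among the 7 matched genes the octamer was found in 2, the core in 3 (Dusp5, Dusp6 and Etv5) and the CArG box in 1. The motif TGACGT of cAMP response elements, present in 7.51% of windows, was found in 2 (Spred2 and Dusp5). The ETS motif CCGGAAG (8.86% of windows) and the AP-1 motif TGANTCA (7.81%) matched none of the 8 windows, and those of Spry1, Spred1 and the outer start of Etv5 held none of the 6 motifs. The TGAATG core and the CArG box were chosen after the promoters had been seen, and a match is a description of letters, not a bound site.

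**Figure D1:**
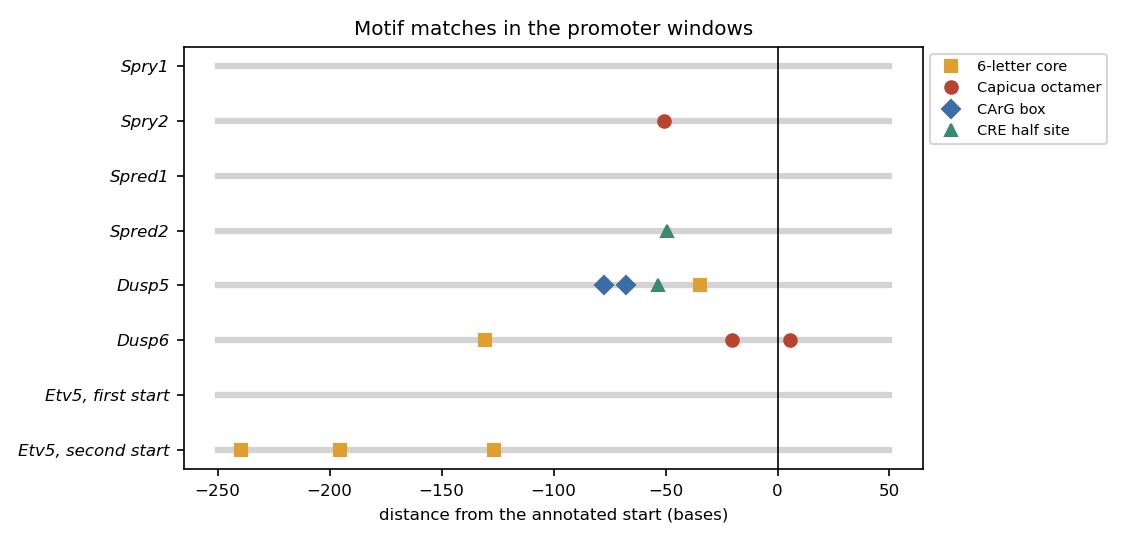
Positions of motif matches in the 8 RefSeq promoter windows of 7 genes, in bases from the annotated start (0), with 1 row per window and 1 symbol per motif. The Dusp6 window holds 2 octamers, the inner Etv5 window 3 TGAATG cores and the Dusp5 window 2 adjacent CArG boxes.

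The comparison of hosts of Colo201 with hosts of HCT116 asked whether these genes differ between livers exposed to a tumour high or low in FGF19. Spry4 and Etv5 rose in hosts of Colo201, and no member fell. The other 8 had positive log2 fold changes, Colo201 over HCT116, but missed an adjusted p of 0.05 over all tested genes (edgeR quasi-likelihood test, Benjamini-Hochberg). The members were chosen with earlier results of these data known, so the shares of all genes set beside them are descriptions only. The 2 of 10 stand beside 2.48% of all tested genes called higher and 2.30% called lower. All 10 log2 fold changes were above 0, from 0.37 to 1.98 with a median of 0.90, where 50.1% of all genes were above 0 and their median was 0.00. At an unadjusted p under 0.05, 8 of 10 were higher, against 11.0% of all genes. In 3 of 10 (Spry4, Spred2 and Etv5) every Colo201 library lay above every HCT116 library in CPM (counts scaled to the library total), which held for 5.55% of all genes.

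**Figure D2:**
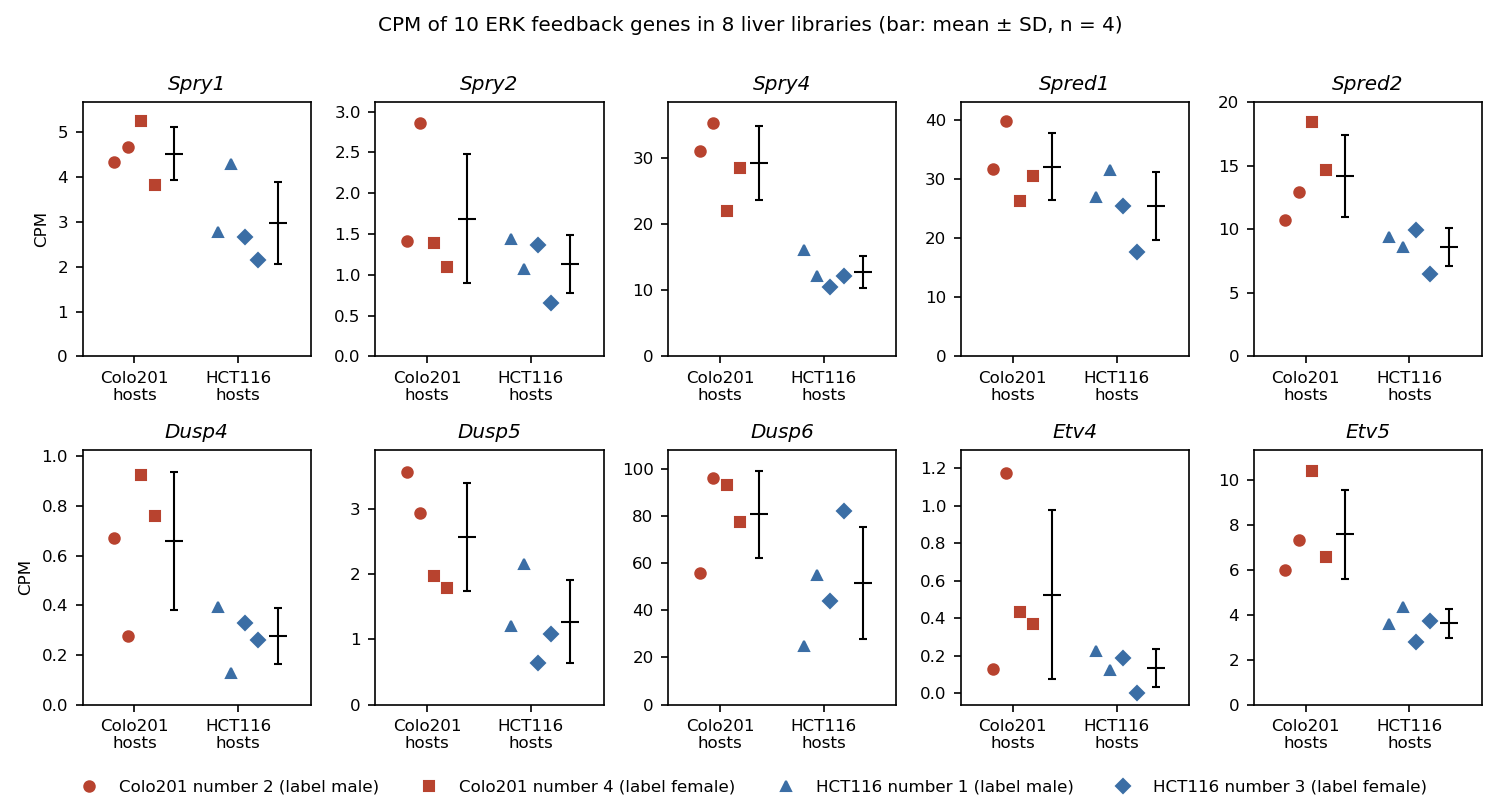
CPM of each member (y axis, own scale per panel) in the 4 libraries of Colo201 hosts, left, and the 4 of HCT116 hosts, right, with bars for mean ± SD and symbols for the sex label. Spry4, Spred2 and Etv5 show no overlap between the lines, while Dusp6 overlaps through 82.0 CPM in HCT116 3R.

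Of the Sprouty genes, which encode inhibitors of receptor tyrosine kinase signalling, Spry4 (ENSMUSG00000024427, chromosome 18) differed most. It stood at 31.1, 35.4, 22.0 and 28.6 CPM in Colo201 2L, 2R, 4L and 4R, against 16.2, 12.1, 10.5 and 12.1 CPM in HCT116 1L, 1R, 3L and 3R. The lowest Colo201 library was above the highest HCT116 library, and libraries of a title number lay within 1.34 times of each other. The mean was 29.3 ± 5.62 CPM for Colo201 and 12.7 ± 2.44 CPM for HCT116 (SD, n = 4 each). The log2 fold change was 1.22 with an SE of 0.13 and an adjusted p of 0.0049 (edgeR). By p it ranked 17 among the genes with a positive log2 fold change. The adjusted p stayed between 0.00963 and 0.0229 with each library left out in turn.

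Spry1 had 4.34, 4.68, 5.25 and 3.84 CPM in Colo201 2L, 2R, 4L and 4R, against 2.79, 4.30, 2.67 and 2.15 CPM in HCT116 1L, 1R, 3L and 3R. HCT116 1R lay above Colo201 4R, so the lines overlapped through 1 library of each. The log2 fold change of 0.66 (SE 0.21) had an adjusted p of 0.119 (edgeR). Spry2, whose promoter carries the octamer printed above, was a low gene in both lines, at 1.41, 2.86, 1.39 and 1.10 CPM in Colo201 2L, 2R, 4L and 4R, against 1.43, 1.07, 1.37 and 0.652 CPM in HCT116 1L, 1R, 3L and 3R. Apart from Colo201 2R at the top and HCT116 3R at the bottom, its libraries were mixed, and the log2 fold change of 0.56 (SE 0.33) had an adjusted p of 0.366 (edgeR).

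The Spred genes encode membrane proteins that bind neurofibromin, which switches RAS off. Spred2 had 10.7, 12.9, 18.4 and 14.6 CPM in Colo201 2L, 2R, 4L and 4R, against 9.37, 8.59, 9.95 and 6.49 CPM in HCT116 1L, 1R, 3L and 3R. The lines did not overlap, but the gap between Colo201 2L and HCT116 3L was only 0.795 CPM. Its log2 fold change of 0.74 (SE 0.18) missed the threshold, with an adjusted p of 0.0535 (edgeR), and passed with DESeq2 (adjusted p = 0.0041) and limma voom (adjusted p = 0.0421). Spred1 stood at 31.7, 39.9, 26.3 and 30.5 CPM in Colo201 2L, 2R, 4L and 4R, against 27.0, 31.5, 25.4 and 17.7 CPM in HCT116 1L, 1R, 3L and 3R. Its lines overlapped, and its log2 fold change was the smallest of the 10, at 0.37 with an SE of 0.12 and an adjusted p of 0.118 (edgeR).

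The Dusp genes encode the phosphatases that take phosphate off ERK, Dusp6 in the cytoplasm and Dusp4 and Dusp5 in the nucleus. Dusp6 had 56.0, 96.0, 93.3 and 77.5 CPM in Colo201 2L, 2R, 4L and 4R, against 25.0, 55.1, 44.0 and 82.0 CPM in HCT116 1L, 1R, 3L and 3R. HCT116 3R stood above Colo201 2L and 4R, so the lines overlapped. Within HCT116 the spread followed L and R, with 1R at 2.21 times 1L and 3R at 1.87 times 3L. The mean was 80.7 ± 18.4 CPM for Colo201 and 51.5 ± 23.8 CPM for HCT116 (SD, n = 4 each), and the log2 fold change of 0.70 (SE 0.30) had an adjusted p of 0.223 (edgeR).

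Dusp5, with the CArG boxes printed above, had 3.57, 2.95, 1.98 and 1.80 CPM in Colo201 2L, 2R, 4L and 4R, against 1.21, 2.16, 0.645 and 1.08 CPM in HCT116 1L, 1R, 3L and 3R. HCT116 1R was above both Colo201 libraries labelled female, and the other 3 HCT116 libraries were below all of Colo201. The log2 fold change of 1.07 (SE 0.28) had an adjusted p of 0.0664 with edgeR and 0.0098 with DESeq2. Dusp4 was near the limit of detection, at 0.673, 0.275, 0.926 and 0.761 CPM in Colo201 2L, 2R, 4L and 4R, against 0.391, 0.126, 0.330 and 0.261 CPM in HCT116 1L, 1R, 3L and 3R. Colo201 2R lay among the HCT116 libraries, and a log2 fold change of 1.23 (SE 0.53) had an adjusted p of 0.217 (edgeR).

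Etv5 and Etv4 belong to the PEA3 group of ETS factors. Etv5 (ENSMUSG00000013089, GRCm38 chromosome 16, 22381309 to 22439719, minus strand) had 5.96, 7.33, 10.4 and 6.57 CPM in Colo201 2L, 2R, 4L and 4R, against 3.59, 4.34, 2.80 and 3.70 CPM in HCT116 1L, 1R, 3L and 3R. The lines did not overlap, with 1.61 CPM between the nearest libraries, and Colo201 4L was the highest of all. Its mean was 7.56 ± 1.96 CPM for Colo201 and 3.61 ± 0.634 CPM for HCT116 (SD, n = 4 each). The log2 fold change was 1.09 with an SE of 0.22 and an adjusted p of 0.0325 (edgeR). The call was close to its threshold: with 1 library left out it held only without Colo201 4R (adjusted p = 0.0454) and was lost without each of the other 7, at up to 0.0937, while the log2 fold change stayed between 0.872 and 1.203.

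Etv4 was the lowest member, at 0.128, 1.18, 0.432 and 0.372 CPM in Colo201 2L, 2R, 4L and 4R, against 0.228, 0.126, 0.189 and 0 CPM in HCT116 1L, 1R, 3L and 3R. Colo201 2R stood apart from its own line, at 9.18 times Colo201 2L, and 2L fell among the HCT116 libraries. A count of 0 in HCT116 3R allows up to 0.196 CPM, taking 3 fragments of 4 counts each as the limit, for counting error only. The log2 fold change was the largest of the 10 at 1.98, with the widest error (SE 0.96, adjusted p = 0.272, edgeR).

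**Figure D3:**
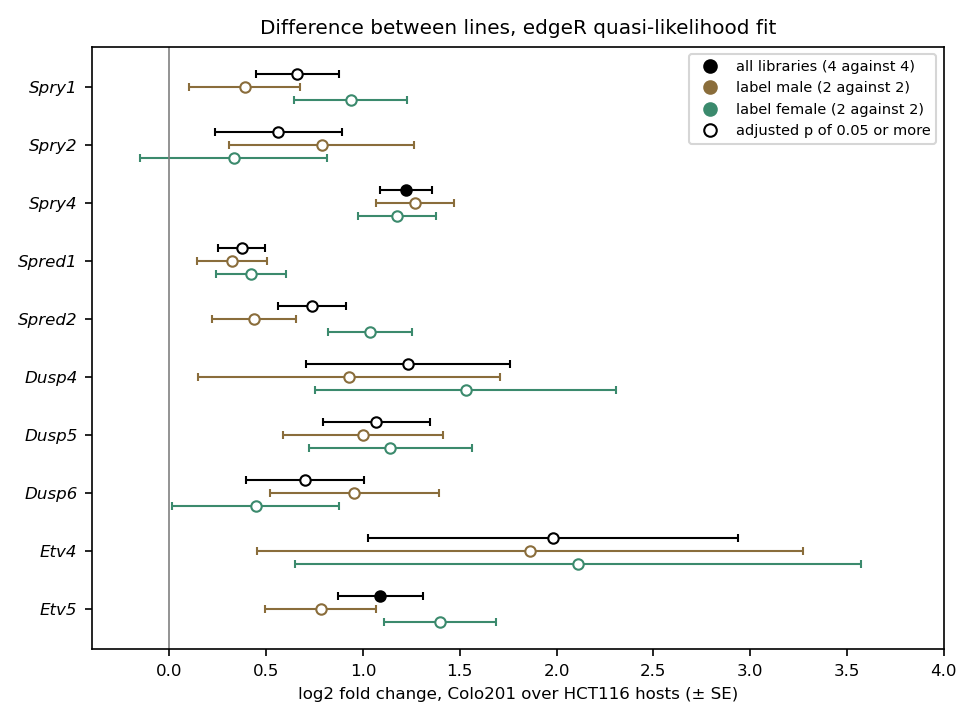
Log2 fold change, Colo201 over HCT116, with its SE (x axis) for each member (rows), over all libraries and within each sex label, from edgeR; open symbols have an adjusted p of 0.05 or more. All points lie above 0, and the filled ones are those of Spry4 and Etv5 over all libraries.

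Levels per transcript length, in the authors' FPKM, gave the order of abundance. In hosts of Colo201 Dusp6 was highest at 23.4 ± 5.28 FPKM, followed by Spry4 at 5.60 ± 1.09, Spred1 at 4.30 ± 0.769 and Spred2 at 2.79 ± 0.630 FPKM (SD, n = 4). Etv5, Spry1, Dusp5 and Spry2 lay between 1.68 and 0.738 FPKM on average, and Dusp4 and Etv4 were lowest at 0.215 and 0.15 FPKM. Neighbours in this order overlapped between libraries except Dusp6 with Spry4 and Spry2 with Dusp4. In hosts of HCT116 Dusp6 was again highest at 15.0 ± 6.90 FPKM, but Spred1, at 3.43 ± 0.785 FPKM, came before Spry4, at 2.45 ± 0.476 FPKM, and those neighbours overlapped. The lowest were again Dusp4 at 0.09 and Etv4 at 0.0375 FPKM. There the neighbours without overlap were Dusp6 with Spred1, Spry4 with Spred2, and Dusp5 with Dusp4.

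The members did not share 1 pattern over single libraries. Among Colo201 libraries 2R was the highest for 5 members (Spry2, Spry4, Spred1, Dusp6 and Etv4), 4L for 4 (Spry1, Spred2, Dusp4 and Etv5) and 2L for Dusp5. Among HCT116 libraries 3R was the lowest for 5 (Spry1, Spry2, Spred1, Spred2 and Etv4). Log2 CPM with TMM scaling and a prior count of 2 were used, with the mean of each line taken off. The 45 pairs of members then had Pearson correlations over the 8 libraries with a median of -0.04. Of these 21 were positive and 24 negative, from -0.61 for Spred1 with Dusp4 to 0.82 for Spry2 with Etv4. Both extremes involve genes of low counts, at 8 to 60 per library for Dusp4 and 0 to 77 for Etv4. Within a line the libraries differ in sex label and title number, which was not taken off, and the values are descriptions.

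**Figure D4:**
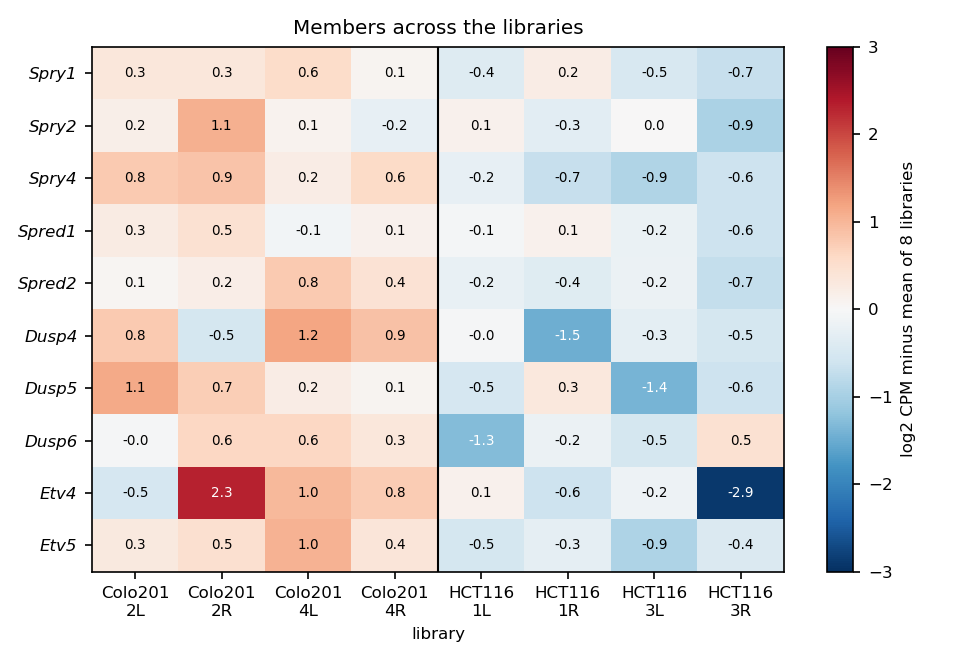
Log2 CPM of each member (rows) in each library (columns, Colo201 left and HCT116 right of the line) minus its mean over the 8 libraries, in colour. Most Colo201 cells are above 0, and Etv4 covers the widest range. The log2 CPM used TMM scaling and a prior count of 2.

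By the same measure, over 12717 genes with at least 1 CPM, the closest to Spry4 within lines was Acsl3, an acyl-CoA synthetase gene (r = 0.99), then 4833413G10Rik (0.97), Ercc8 (0.96), Rnaset2a (0.96) and Trpm2 (0.96). The closest to Etv5 were Zhx2 (0.98), Armc6 (0.97), Ift43 (0.97), Igsf10 (0.95) and Taf3 (0.95). None of these 10 genes passed between the lines in edgeR (the lowest adjusted p was 0.109, for Trpm2), and the values are descriptions.

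Each line had 1 title number per sex label, so within a line the label and the title number cannot be told apart. The contrasts within and between labels below are thus also contrasts of title numbers. Within each sex label, with 2 libraries a line, 0 of 10 members passed with edgeR. It called 0.492% of all genes in either direction within label female and 0.232% within label male. All 10 log2 fold changes were above 0 within both labels, with medians of 1.09 within label female and 0.86 within label male; 50.5% and 49.7% of all genes were above 0 within label female and within label male. At an unadjusted p under 0.05, 6 were higher within label female, against 7.49% of all genes, and 3 within label male, against 6.58%. Spry4 differed by almost the same amount in each, 1.18 (SE 0.20, adjusted p = 0.0629) within label female and 1.27 (SE 0.20, adjusted p = 0.0774) within label male. Etv5 differed by 1.40 (SE 0.29, adjusted p = 0.106) within label female and 0.78 (SE 0.29, adjusted p = 0.321) within label male. Spred2 differed by 1.04 (SE 0.22, adjusted p = 0.108) within label female and 0.44 (SE 0.22, adjusted p = 0.445) within label male. With DESeq2, 3 members passed as higher within label female (Spry4, Spred2 and Etv5), where it called 2.05% of all genes higher, and 1 within label male (Spry4), where it called 1.69%.

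The interaction, the difference between lines within label female minus that within label male, passed for 0 of 10 members with edgeR and for 0.0283% of all genes. It was above 0 for 7, against 50.5% of all genes, and below 0 for Spry2 (-0.45), Spry4 (-0.09) and Dusp6 (-0.51). None had an unadjusted p under 0.05, as 725 of the 17669 genes did; the lowest was 0.0857 for Spred2, at 0.60 (SE 0.31), and DESeq2 also called 0. Between libraries labelled female and libraries labelled male 0 of 10 passed with edgeR or DESeq2, against 4.02% of all genes with edgeR. In log2 units, label female minus label male, 3 were lower at an unadjusted p under 0.05, against 9.30% of all genes: Spred1 at -0.38 (adjusted p = 0.129), Dusp5 at -0.87 (adjusted p = 0.132) and Spry4 at -0.36 (adjusted p = 0.194). For Spry4 this showed in Colo201 as 22.0 and 28.6 CPM in the libraries labelled female and 31.1 and 35.4 CPM in those labelled male, all above the HCT116 libraries.

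How the calls moved with the method was checked for all members. DESeq2 called 4 of 10 higher (Spry4, Etv5, Spred2 and Dusp5), where it called 5.49% of all genes higher, and limma voom called 3 (Spry4, Etv5 and Spred2), where it called 2.85%. With counts summed over the libraries of a title number, the sex label was also left out of the fit. That fit, by edgeR with 2 residual degrees of freedom, called 0 of 17669 genes, of which 1877 had an unadjusted p under 0.05. Among these were 5 members, all higher, against 5.16% of all genes higher. Spry4 then had a log2 fold change of 1.23 with an unadjusted p of 0.00246 and an adjusted p of 0.402. Each member kept a positive log2 fold change under every scaling and every other alternative that gave it a value.

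**Figure D5:**
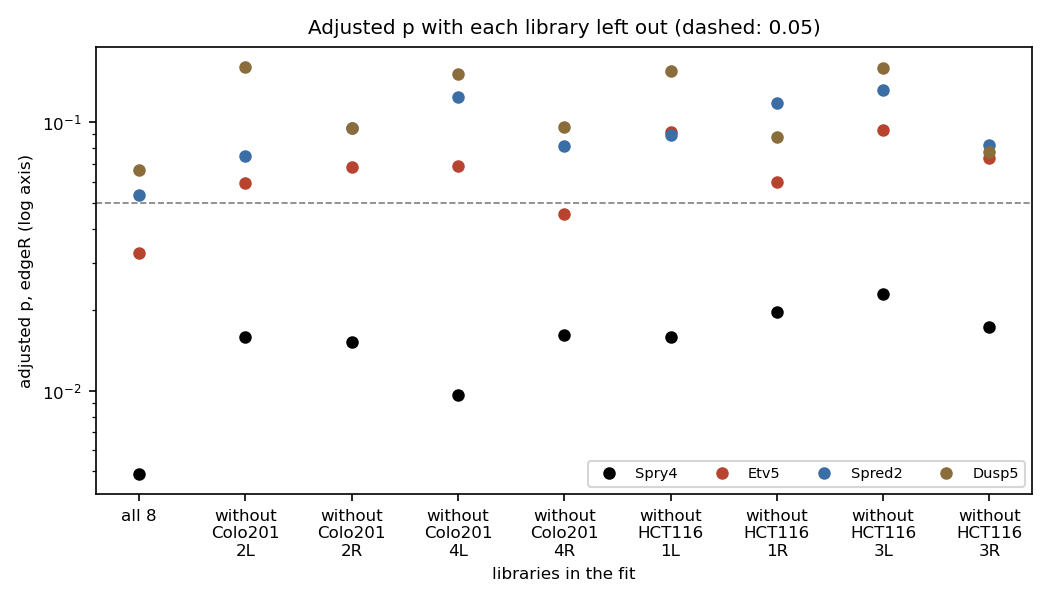
Adjusted p (y axis, log scale, dashed line at 0.05) of Spry4, Etv5, Spred2 and Dusp5 from edgeR with all 8 libraries and with each library left out in turn (x axis). Spry4 stays below the line throughout, and Etv5 is below it only with all libraries and without Colo201 4R.

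Relatives of the members did not move as a group. Of 9 tested genes of the same families, 0 passed with edgeR or limma voom and 1 had an unadjusted p under 0.05 (Spred3, which DESeq2 called lower); 3 log2 fold changes were positive and 6 negative, with a median of -0.31. Spred3, the third Spred gene, averaged 0.335 ± 0.123 CPM in hosts of Colo201 and 0.878 ± 0.242 CPM in hosts of HCT116 (log2 fold change -1.35, adjusted p = 0.103). Dusp8 and Dusp10, phosphatases that act mainly on the stress kinases JNK and p38, had 0.94 (adjusted p = 0.355) and 0.44 (adjusted p = 0.381). Etv1, the remaining PEA3 factor, had -0.55 (adjusted p = 0.417). Spry3 was not analysed here.

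Among 19 tested genes of other ERK and Capicua outputs 0 passed with edgeR and 3 had an unadjusted p under 0.05, all higher; 11 were positive and 8 negative with a median of 0.12. Mafk, a small MAF transcription factor, was nearest, at 27.4 ± 4.0 CPM in hosts of Colo201 and 19.3 ± 2.29 CPM in hosts of HCT116 (log2 fold change 0.53, adjusted p = 0.0553), and was the 1 gene of this list that DESeq2 and limma voom called. Epha2, an ephrin receptor, had 0.59 (adjusted p = 0.212) and Rasa2, a RAS GTPase activating protein, -0.45 (adjusted p = 0.247). Flrt3, a membrane partner of FGF receptors, had 0.256, 0.642, 0.247 and 0.389 CPM in Colo201 2L, 2R, 4L and 4R, against 0, 0.0632, 0 and 0.0978 CPM in HCT116 1L, 1R, 3L and 3R (adjusted p = 0.144). Its lines did not overlap, and 2 HCT116 libraries were at 0. Of 12 tested immediate early genes, which respond to ERK within minutes, 0 passed with edgeR or limma voom, 1 was higher and 2 lower at an unadjusted p under 0.05, and DESeq2 called Fosb lower; 4 were positive and 8 negative with a median of -0.20. Fosb had -2.87 (adjusted p = 0.0974), with 2.24 and 3.15 CPM in HCT116 1R and 3R and 0.0917 to 0.417 CPM in all other libraries. Fosl2 had -0.44 (adjusted p = 0.176), Jund 0.33 (adjusted p = 0.205) and Srf, which encodes the factor that binds CArG boxes, 0.32 (adjusted p = 0.232).

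In the kinase cascade itself 3 of 20 genes rose and 1 fell in hosts of Colo201 (edgeR), with a median of 0.09. Mapk3, which encodes ERK1, averaged 54.5 ± 5.08 CPM in hosts of Colo201 and 39.7 ± 1.45 CPM in hosts of HCT116 (log2 fold change 0.49, adjusted p = 0.0273). Rps6ka1, which encodes the ERK-activated kinase RSK1, rose by 0.54 on the log2 scale (adjusted p = 0.0313) and Rras, a RAS relative, by 0.44 (adjusted p = 0.0424), while Braf, a RAF kinase upstream of MEK, fell by 0.46 (adjusted p = 0.0491). With 1 library left out, Mapk3 and Rps6ka1 passed only without Colo201 4R and Rras only without HCT116 3R, with adjusted p up to 0.0908, 0.0996 and 0.126, and Braf passed with none of the 8 left out (0.0542 to 0.136). Among 17 receptor and adaptor genes Fgfr2 rose by 0.70 on the log2 scale (adjusted p = 0.0187) and Fgfr3 fell by 0.70 (adjusted p = 0.0459), with a median of -0.11. Fgfr2 lost its call without Colo201 4L, HCT116 1L or HCT116 1R (0.0503 to 0.0598) and Fgfr3 without each of the 8 libraries (0.0538 to 0.132). Fgfr4 had -0.08 (adjusted p = 0.593, edgeR) and its co-receptor gene Klb 0.29 (adjusted p = 0.233, edgeR). Frs2, the adaptor between FGF receptors and RAS, had -0.37 (adjusted p = 0.0816, edgeR) and Shc1, another adaptor, 0.24 (adjusted p = 0.115, edgeR). The HGF receptor gene Met had -0.55 (adjusted p = 0.124, edgeR) and Ptpn11, which encodes the phosphatase SHP2, -0.23 (adjusted p = 0.170, edgeR). DESeq2 also called Frs2 and Met lower. Over the receptor and adaptor genes 5 log2 fold changes were positive and 12 negative (edgeR).

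Sprouty, Spred and Dusp genes are also expressed outside hepatocytes, so markers of other liver cells were read beside them. Of 12 endothelial markers 0 passed with edgeR, DESeq2 or limma voom and 2 had an unadjusted p under 0.05, with summed levels of 228 to 398 CPM in hosts of Colo201 and 244 to 399 CPM in hosts of HCT116. Of 12 Kupffer cell markers 0 passed with edgeR and 1 had an unadjusted p under 0.05 (Lyz2, which DESeq2 called lower), with sums of 234 to 656 CPM in hosts of Colo201 and 381 to 593 CPM in hosts of HCT116. Of 6 tested neutrophil markers 0 passed with any of these tools and 0 had an unadjusted p under 0.05, with sums of 1.49 to 6.86 CPM in hosts of Colo201 and 2.62 to 6.57 CPM in hosts of HCT116. Of 12 stellate and matrix markers Reln rose (log2 fold change 0.89) with edgeR, and 8 log2 fold changes were positive and 4 negative. DESeq2 called 3 higher and 2 lower (Hgf and Dcn), and limma voom called 2 higher and 1 lower (Hgf). Hgf had 1.34 to 3.17 CPM in hosts of Colo201 and 3.68 to 6.48 CPM in hosts of HCT116. Its log2 fold change was -1.12 (adjusted p = 0.0664, edgeR). The summed levels of the list were 261 to 281 CPM in hosts of Colo201 and 194 to 299 CPM in hosts of HCT116. No endothelial, Kupffer or stellate marker was at 0 in any library. Of 9 tested cholangiocyte markers Krt23 rose (log2 fold change 4.13). In that list 7 log2 fold changes were positive and 2 negative, with a median of 0.90, and Spp1 had -0.26 (adjusted p = 0.186, edgeR). The sums were 47.7 to 99.1 CPM in hosts of Colo201 and 45.4 to 54.2 CPM in hosts of HCT116. At most 1 of the 10 genes was at 0 in a library. Krt23 itself had 6.98 to 32.2 CPM in hosts of Colo201 and 0.330 to 2.23 CPM in hosts of HCT116. Krt19 stood at 25.9 CPM in Colo201 4R, against 0.481 to 2.23 CPM in the other 7 libraries. Epcam (12.0 CPM) and Cldn7 (4.97 CPM) were also highest in that library. Of 10 hepatocyte markers 3 rose (Apoa1 by 0.47, Trf by 0.51 and Ahsg by 0.37 on the log2 scale). Over the 10 markers 7 log2 fold changes were positive and 3 negative, with a median of 0.13 (edgeR). Their sums were 151200 to 185200 CPM in hosts of Colo201 and 122800 to 165700 CPM in hosts of HCT116. The 5 marker calls were each lost without some library: Reln without Colo201 4L or HCT116 1L, Krt23 without HCT116 1R or 3R, Apoa1 without Colo201 4L, HCT116 1R or 3L, Trf without any but Colo201 2R or 4R, and Ahsg without any but Colo201 2R, 4R or HCT116 3R, at adjusted p from 0.0515 to 0.0895. Colo201 4R was the lowest of its line in the endothelial, Kupffer and neutrophil sums and the highest in the cholangiocyte sum. Without Colo201 4R, Spry4 and Etv5 still passed, and so did the 5 marker genes. The part of cell composition was not tested for any gene.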

How the data were processed

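Polyadenylated mouse liver RNA was measured in 8 libraries, 4 from hosts of each xenograft line. The kit was a stranded TruSeq mRNA kit, per the labels' protocols. The submitters' processing notes name HISAT2, StringTie and GRCm38 (mm10). Tool versions and whether counting used strand were not given in the sources used here; overlapping or antisense genes may therefore share reads. The authors deposited estimated counts, all whole numbers, and edgeR used them unchanged; among values of 1 to 16, 44.7% were multiples of 4, where an even spread gives 25%. The authors' FPKM, which are not independent of the counts, served for levels per length and in alternatives. Of the per-sample columns 0 were left out.

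Of 55401 identifiers 55141 matched a symbol in GENCODE vM21. CPM are counts scaled to the library total. After filterByExpr by line and sex label, 17669 genes were scaled by TMM and tested by glmQLFit and glmQLFTest of edgeR 4.0.16 (R 4.3.3), with sex label as a covariate for the lines, which left 5 residual degrees of freedom, and with 4 means for the within-label and interaction contrasts, which left 4. Two-sided p-values were adjusted over all tested genes (Benjamini-Hochberg, threshold 0.05). The scripts were tested on simulated data. Alternatives were DESeq2 1.42.0, limma 3.58.1 (voom, and log2 FPKM with a pseudocount of 1 or 0.1), and other scalings and filters. Further ones were no covariate, counts divided by 4, title numbers summed (also with no covariate), and each library left out.

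The members and the other gene lists were chosen with earlier results of these data known. All 10 members were named; of each other list, every passing gene and up to 4 more with the smallest p; and, for each member that passed, the 5 genes most like it. Markers of other liver cells are named where they passed, with Krt19, Epcam, Cldn7, Spp1, Lyz2, Hgf and Dcn named after their values were seen. Fgfr4 and Klb are named as the stated route of FGF19.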

Additional observations from a re-analysis of the deposited data

How the results depend on the processing

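Against 2 members called between the lines, DESeq2 called 4, limma on log2(FPKM + 1) called 1 and the fit with no covariate called 1. Libraries summed by title number, also with no covariate, gave 0, and leaving out single libraries gave 1 to 2. Within label male, where edgeR called 0, DESeq2 and limma voom each called 1. Within label female, where it called 0, DESeq2 called 3, limma voom 1 and the fit with no filter on low counts 1. Leaving out single libraries reversed 2 values: Etv4 within label male ranged from -0.36 (without Colo201 2R) to 2.70, and Spry2 within label female from -0.0741 (without HCT116 3R) to 0.906. The cause was not tested. Over 198 results of single members between the lines, 182 kept direction and side of the threshold, 11 lost the call, 5 gained it and 0 reversed. Spry4 passed in 19 of 20 alternatives and Etv5 in 10. Over all genes the 845 calls between the lines became 1993 with DESeq2, 619 with limma on log2(FPKM + 1) and 155 with no covariate. They became 0 with summed libraries, also with no covariate, and 182 to 549 with a library left out. The 41 within label male became 589 with DESeq2, 51 with voom and 0 to 49 with a library left out. On log2 FPKM with pseudocounts of 0.1 and 1 they became 24 and 26. The 87 within label female became 754 with DESeq2, 142 with voom and 18 to 79 with a library left out. The 5 in the interaction became 53 with DESeq2, 2 with either log2 FPKM fit and 0 to 13 with a library left out, and the 710 between sex labels became 1585 with DESeq2 and 314 to 639 with a library left out. Etv4 and Dusp4 had the lowest counts of the members, and counting error was not separated from the spread between libraries. No paired analysis was possible because the lines share no title numbers.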
